A study of Homo sapiens with 6 samples.

Results

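The hairpin shDDX18#1 was compared with a hairpin against luciferase (shLuc), a sequence with no target in human cells, in 2 human embryonic stem cell lines. The members were the 4 RNA-seq libraries labelled with these arms, 1 per arm and line, out of 6 in the table; the other two carried shDDX18#3. H9 and HES2 are established lines derived from blastocysts, and both were kept on irradiated mouse embryonic fibroblasts (feeders) in medium with serum replacement and bFGF, so every arm could also hold RNA of feeder cells. Virus carrying a hairpin was added to the cells, which were collected on day 4. In each line, shDDX18#1 was set against the shLuc library of the same line (H9 is replicate 1 and HES2 replicate 2). The labels do not say that libraries of 1 arm came from cultures infected on separate occasions, so each p-value covers only the spread among these 6 libraries, which may be technical.

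DDX18 encodes an RNA helicase of the DEAD-box family that sits in the nucleolus, the nuclear compartment in which ribosomal RNA is transcribed and joined to ribosomal proteins, and it is known for a role in making the large ribosomal subunit. Embryonic stem cells divide fast and have large, active nucleoli. Their undifferentiated state rests on a network of transcription factors that includes SOX2 and NANOG, and impaired ribosome production is known to engage the p53 pathway through free ribosomal proteins that bind MDM2. The study's design text gives the purpose of the RNA-seq as learning how DDX18 acts in keeping human embryonic stem cell identity.

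The libraries held between 2668179 and 4271741 recovered reads, and the 4 compared here were at both ends of that range: 3647530 and 4271741 with shLuc, 2668179 and 2966308 with shDDX18#1 (H9 first). Values are CPM, read counts scaled by the authors to a common library size, in which 1 read was worth 0.224 to 0.408 CPM, so counting error is largest for the low genes of the shDDX18#1 libraries. Changes are given as differences of log2(CPM + 1), an offset that understates the change of low genes, from a limma fit over 17768 genes with the cell line as a block. A gene was called at a Benjamini-Hochberg adjusted p under 0.05, and "rose" or "fell" is used only of called genes.

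The targeted transcript was lower in both shDDX18#1 libraries than in any other library. DDX18 (ENSG00000088205) stood at 153 CPM in H9 with shLuc and 19.2 CPM with shDDX18#1, and at 161 and 39.3 CPM in HES2, which leaves 12.6% and 24.5% of the control level. The arm means were 157 ± 5.44 CPM (SD, n = 2) and 29.2 ± 14.2 CPM (SD, n = 2). With shDDX18#3 the transcript was at 47.3 CPM in H9 and 60.4 CPM in HES2, between the other arms in each line. DDX18 fell with shDDX18#1 (log2 change -2.47, SE 0.22, limma adjusted p = 0.000257). The 2 hairpins differed by -0.93 (95% interval -1.44 to -0.43, limma adjusted p = 0.145), so the deeper loss with shDDX18#1 was seen in both lines but did not pass the threshold.

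Over all genes, 2559 rose (14.4% of those tested) and 2387 fell (13.4%) with shDDX18#1. The rises were the larger: 1743 rises and 1075 falls were at least 2-fold, and 591 and 106 at least 4-fold. All 4946 called genes moved in the same direction in both lines, against 73.5% of all tested genes; a fit blocked by line selects for such agreement, so this is a description of the calls. In 4786 of them both shDDX18#1 values lay on one side of both shLuc values, and 59.1% of all tested genes were also separated in that way. The median change over all tested genes was -0.03 (interquartile range -0.47 to 0.50), which is the background for every list below. Over all tested genes, rises and falls were both fewer whenever 1 library was left out, fewest without H9 shDDX18#1. Lower list counts given below for such fits stand against that. For shDDX18#3, which shares the shLuc libraries, 1236 rose (6.96%) and 655 fell (3.69%).

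The genes that hold human embryonic stem cells undifferentiated fell together. Of 15 core pluripotency factors tested, 10 fell and 1 rose (median -1.63; -1.62 in H9 and -1.37 in HES2), and of 27 other markers of the state 20 fell and 1 rose (median -1.41). SOX2, a transcription factor at the centre of the network, went from 422 to 82.1 CPM in H9 and from 377 to 72.7 CPM in HES2. The 2 lines started and ended at nearly the same level, and the shDDX18#1 values were the lowest of the 6. SOX2 fell by 2.35 on the log2 scale (SE 0.13, limma adjusted p = 5.32e-05), from 399.5 ± 31.7 CPM (SD, n = 2) to 77.4 ± 6.62 CPM (SD, n = 2).

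NANOG, the second factor of that core, went from 90.8 to 23.3 CPM in H9 and from 95 to 26.4 CPM in HES2 (log2 change -1.86, SE 0.16, limma adjusted p = 0.000223). PRDM14, a repressor of early differentiation genes in human cells, went from 143 to 21.2 CPM in H9 and from 97.7 to 17.7 CPM in HES2 (log2 change -2.55). The zinc finger factor ZSCAN10 went from 282 to 48.2 CPM in H9 and from 302 to 63.4 CPM in HES2 (log2 change -2.38). In each of these the groups were well apart and no library of 1 arm reached the other. ZFP42 (REX1), a classical marker of the state, and FOXD3, a repressor needed by stem cells, also fell (-1.88 and -1.83). OTX2, a factor of primed stem cells and of the anterior embryo, was the exception in the list and rose from 62.8 to 183 CPM in H9 and from 44.7 to 137 CPM in HES2 (log2 change 1.56, limma adjusted p = 0.00118). SALL4, VENTX and SOX3 were among the members that did not pass the test.

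Among the state markers, the telomere protein gene TERF1 went from 343 to 50.6 CPM in H9 and from 482 to 88.2 CPM in HES2, the largest fall of its list (-2.59). The de novo DNA methyltransferase DNMT3B, one of the most abundant markers of these cells, went from 1527 to 336 CPM in H9 and from 1348 to 277 CPM in HES2 (log2 change -2.23, SE 0.13, limma adjusted p = 6.76e-05). All 4 values of each of these genes fell into 2 separate pairs. L1TD1, an RNA-binding protein of human stem cells, and DPPA4, a chromatin protein, fell by 1.77 and 1.85 on the log2 scale. TRIM71, which guards the stem cell state through the let-7 pathway, went from 543 to 197 CPM in H9 and from 532 to 254 CPM in HES2. The one riser was PODXL, a surface sialomucin, while LIN28A, DPPA2, GDF3, GAL, EPCAM and CUZD1 did not pass.

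Genes of naive pluripotency, the state of the preimplantation embryo, did not follow the core factors: 5 of 8 rose and 0 fell (median 1.47). When each of the 6 libraries was left out in turn, between 2 and 4 rose, fewest without HES2 shDDX18#1. KLF5 went from 11.4 to 52.7 CPM in H9 and from 11.2 to 43.8 CPM in HES2 and TBX3 went from 14.1 to 31.9 CPM in H9 and from 10.7 to 113 CPM in HES2; KLF and TBX factors also act in many differentiated tissues. The TBX3 call was lost without HES2 shDDX18#1 (log2 change 1.5, limma adjusted p = 0.0563), the library in which it was highest. Genes of NODAL and FGF signalling, the pathways that maintain primed cells, moved both ways, with 6 up and 6 down of 22. Each count is 27.3% of the list, against 14.4% for rises and 13.4% for falls over all tested genes. Without either shDDX18#3 library 3 of them rose. The MAP kinase phosphatase DUSP4 rose from 37.4 to 187 CPM in H9 and from 16.3 to 145 CPM in HES2 (2.68), and the activin receptor ACVR2B fell from 121 to 42.9 CPM in H9 and from 164 to 95.2 CPM in HES2 (-1.13).

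**Figure D1:**
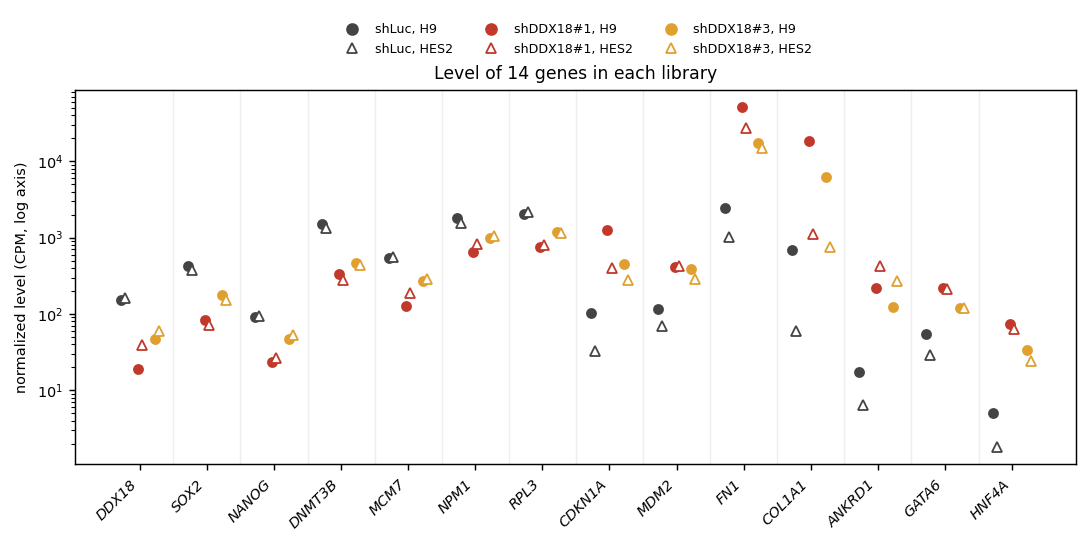
Levels of 14 genes in each of the 6 libraries, in CPM on a log axis, 1 point per library; dark points are shLuc, red shDDX18#1 and orange shDDX18#3, filled circles are H9 and open triangles HES2. From shLuc to shDDX18#1, DDX18, SOX2, NANOG, DNMT3B, MCM7, NPM1 and RPL3 go down in both lines, and CDKN1A, MDM2, FN1, COL1A1, ANKRD1, GATA6 and HNF4A go up in both.

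Genes of DNA synthesis and of mitosis fell nearly as whole groups. In the DNA replication list 42 of 46 tested genes fell and none rose (median -1.43; -1.62 in H9 and -1.07 in HES2), and in the list of mitosis and G2 41 of 45 fell and none rose (median -1.16). The members that did not pass were LIG1, PRIM2, TYMS and SLBP in the first list and CDC25B, CENPA, ANLN and ECT2 in the second. The replication median lay further from 0 in H9 than in HES2.

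Many promoters of replication genes carry sites of E2F factors, and many promoters of mitotic genes carry a cell cycle homology region (CHR), the element read by the DREAM complex. Because members of both lists fell together, the RefSeq sequence of the 250 bases before the annotated start (GRCh38.p14, not the build of the deposited table) is shown for 3 genes with E2F letters and 2 with CHR letters, written 5′ to 3′ on the gene's strand. Capitals mark, for each gene, only the letters it is shown for, on either strand. In MCM6, MCM7 and E2F1 these are TTTCCCGC, TTTGGCGC, TTTCGCGC or TTTGCCGC for E2F. In DLGAP5 and KIF11 they are TTTGAA or TTCGAA for CHR. The MCM6 window also holds TTCGAA near its distal end, left in lower case.
MCM6 (chr2:135876444-135876693, strand -): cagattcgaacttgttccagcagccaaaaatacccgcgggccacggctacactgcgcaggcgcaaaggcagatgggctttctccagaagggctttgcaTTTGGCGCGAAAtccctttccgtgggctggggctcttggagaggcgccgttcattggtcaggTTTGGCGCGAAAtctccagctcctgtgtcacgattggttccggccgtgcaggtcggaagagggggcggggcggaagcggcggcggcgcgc
MCM7 (chr7:100101398-100101647, strand -): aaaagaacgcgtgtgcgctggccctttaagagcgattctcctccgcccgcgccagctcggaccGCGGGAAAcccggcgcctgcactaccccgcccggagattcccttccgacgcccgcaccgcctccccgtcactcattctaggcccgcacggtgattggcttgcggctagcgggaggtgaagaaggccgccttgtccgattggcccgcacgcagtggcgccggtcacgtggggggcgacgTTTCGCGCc
E2F1 (chr20:33686386-33686635, strand -): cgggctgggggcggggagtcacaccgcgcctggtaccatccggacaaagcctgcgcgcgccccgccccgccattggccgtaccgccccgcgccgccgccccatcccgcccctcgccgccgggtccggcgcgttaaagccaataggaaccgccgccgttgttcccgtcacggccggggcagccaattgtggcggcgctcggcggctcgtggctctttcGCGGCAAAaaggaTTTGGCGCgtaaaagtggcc
DLGAP5 (chr14:55191586-55191835, strand -): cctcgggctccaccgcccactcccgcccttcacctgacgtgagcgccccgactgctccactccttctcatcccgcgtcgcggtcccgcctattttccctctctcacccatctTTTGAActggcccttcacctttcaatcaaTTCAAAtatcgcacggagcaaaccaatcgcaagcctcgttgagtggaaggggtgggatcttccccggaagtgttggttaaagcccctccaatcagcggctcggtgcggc
KIF11 (chr10:92592880-92593129, strand +): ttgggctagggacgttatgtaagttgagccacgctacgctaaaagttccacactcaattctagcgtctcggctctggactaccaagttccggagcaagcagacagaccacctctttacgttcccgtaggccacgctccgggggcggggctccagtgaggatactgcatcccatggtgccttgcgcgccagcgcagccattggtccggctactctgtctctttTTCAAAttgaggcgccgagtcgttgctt

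In MCM6 the 4 E2F matches form 2 overlapping pairs, and the MCM7 promoter has 1 match in which the first base lies 9 bases before the start. E2F letters were in 14 of the 40 replication genes with a promoter in the table (35%), beside 2.79% of all 27305 promoters. CHR letters were in 20 of 38 mitosis genes (52.6%, against 14.6% of all promoters) and E2F letters in 2 of those 38. CCAAT, the box bound by NF-Y, was in 29 of the same 38 (76.3%, against 33% of all promoters). These shares describe letters in a window, which is not evidence of binding.

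MCM7 and MCM6 encode subunits of the helicase that opens replication origins. MCM7 went from 542 to 128 CPM in H9 and from 561 to 189 CPM in HES2 (log2 change -1.82, SE 0.16, limma adjusted p = 0.000242), and MCM6 went from 223 to 62.9 CPM in H9 and from 234 to 87.5 CPM in HES2. GINS1, a part of the same moving helicase, went from 83.3 to 20.4 CPM in H9 and from 93.9 to 29.3 CPM in HES2. The shDDX18#1 values of all 3 were below every shLuc value, and lower in H9 than in HES2. MCM2 (-1.75), the loading factor CDT1 (-1.73), the ribonucleotide reductase subunit RRM2 (-1.73) and the sliding clamp PCNA (-1.08) fell as well.

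In mitosis, BUB1, a kinase of the spindle checkpoint, went from 169 to 57.6 CPM in H9 and from 201 to 69.2 CPM in HES2 (log2 change -1.53, SE 0.14, limma adjusted p = 0.000249). DLGAP5, a spindle protein, went from 95.2 to 30.2 CPM in H9 and from 96.8 to 32.8 CPM in HES2, and the kinesin KIF11, which separates the spindle poles, went from 99.1 to 25.3 CPM in H9 and from 102 to 42.2 CPM in HES2. For each of the 3 genes both shDDX18#1 values lay below both shLuc values, and the H9 value with shDDX18#1 was the lower one. The kinases AURKB (-1.63) and PLK1 (-1.3), cyclin CCNB1 (-1.28) and the proliferation marker MKI67 (-1.48) fell too.

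Regulators of G1 moved both ways. E2F1, an activator of S phase genes, went from 49.8 to 11 CPM in H9 and from 65.5 to 16.4 CPM in HES2 (log2 change -2.01, SE 0.20, limma adjusted p = 0.000403). The inhibitor CDKN2B rose from 7.20 to 79.6 CPM in H9 and from 3.13 to 93.6 CPM in HES2 (3.91), and the kinase CDK6, a partner of D cyclins, rose from 44.6 to 187 CPM in H9 and from 33.3 to 114 CPM in HES2 (1.89). CDKN2A, CDKN1C, RB1 and CCND1 were the other rises of that list. In it 6 rose and 13 fell of 27 (22.2% and 48.1%, against 14.4% and 13.4% of all tested genes). With 1 library left out, between 5 and 12 of its genes fell, fewest without H9 shDDX18#1. Of 27 genes of homologous recombination and the Fanconi pathway 18 fell and 1, RAD51C, rose; without H9 shDDX18#1 the falls were 11. The helicase BLM went from 57.6 to 15.5 CPM in H9 and from 71.5 to 20.9 CPM in HES2, and FANCD2, the monoubiquitinated hub of the Fanconi pathway, went from 99.1 to 25.7 CPM in H9 and from 97 to 38.3 CPM in HES2.

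Genes of the nucleolus and of ribosome production fell in every sublist and none rose: 156 of 233 tested genes fell (median -0.64). Of its 7 sublists, nucleolar scaffolds and snoRNP proteins had the lowest median, with 17 of 18 down (-1.1). Fibrillarin (FBL), the methyltransferase of box C/D snoRNPs, went from 252 to 106 CPM in H9 and from 292 to 120.3 CPM in HES2 (log2 change -1.26, SE 0.13, limma adjusted p = 0.000454). NPM1, the abundant protein of the outer nucleolar layer, went from 1787 to 639.9 CPM in H9 and from 1538 to 825 CPM in HES2, and nucleolin (NCL) went from 1722 to 611 CPM in H9 and from 1519 to 780.0 CPM in HES2. All of them were lower in both lines, by more than 2-fold in H9. NOLC1 (-1.16), NPM3 (-1.39), NOP56 (-1.13), NOP58 (-1.21) and the GTPase GNL3 (-0.98), known as nucleostemin, fell with them.

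Relatives of DDX18 in the nucleolus fell in part. Of 15 nucleolar DEAD-box and DEAH-box helicases tested, 6 fell and none rose (median -0.58), and without H9 shDDX18#1 3 fell. DHX33 went from 160.3 to 63.7 CPM in H9 and from 169 to 79.5 CPM in HES2 (-1.2), DDX21, a helicase of ribosomal RNA transcription, fell by 0.85, and DDX10 fell by 0.86. The DDX10 call was lost without H9 shDDX18#1 (log2 change -0.75, limma adjusted p = 0.056).

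Assembly factors of the subunits gave 23 falls of 47 for the small subunit (median -0.5) and 23 of 44 for the large one (median -0.53). Both counts depended on single libraries. They were lowest without H9 shDDX18#1, the library whose omission also left the fewest falls over all tested genes. MDN1, the giant ATPase that strips factors from the pre-60S particle, went from 568 to 189 CPM in H9 and from 622 to 281 CPM in HES2 (log2 change -1.36, SE 0.15, limma adjusted p = 0.00065). WDR12 of the PeBoW complex, which acts in the large subunit pathway, went from 80.8 to 33.5 CPM in H9 and from 94.6 to 47.3 CPM in HES2. PDCD11, a scaffold of early pre-ribosomes, and WDR75 of the small subunit processome fell by 0.93 and 0.98. RRS1, listed with the small subunit although it is known as a 5S particle factor of the large one, fell by 1.14. UBTF, which holds ribosomal DNA open for RNA polymerase I, went from 277 to 125 CPM in H9 and from 295 to 159.6 CPM in HES2, one of 6 falls among 14 genes of that machinery. Leaving out any of 4 libraries (both H9 knockdowns, HES2 shDDX18#3 or H9 shLuc) gave 3 falls in place of 6.

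Cytosolic ribosomal proteins fell in 69 of 76 genes (median -0.7), and their summed share of reads went from 5.48% to 3.12% in H9 and from 5.59% to 3.21% in HES2. With 1 library left out, between 39 and 66 fell, fewest without H9 shDDX18#1. RPL3, a protein at the core of the large subunit, went from 2014 to 750.2 CPM in H9 and from 2166 to 811 CPM in HES2 (log2 change -1.42, SE 0.14, limma adjusted p = 0.000382). RPL5, one of the proteins that can bind MDM2, went from 1054 to 532 CPM in H9 and from 941 to 479.8 CPM in HES2. The lines gave nearly the same values for both genes in both arms. Many ribosomal protein genes have processed copies elsewhere in the genome, and how the reads were shared among copies is not given in the sources used here, so single values in this family are uncertain. Among snoRNA host genes 12 of 19 fell and 0 rose, and between 7 and 12 fell with 1 library left out, fewest without H9 shDDX18#1, H9 shDDX18#3, HES2 shLuc or HES2 shDDX18#3. SNHG1 went from 244 to 108 CPM in H9 and from 222 to 91.7 CPM in HES2.

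**Figure D2:**
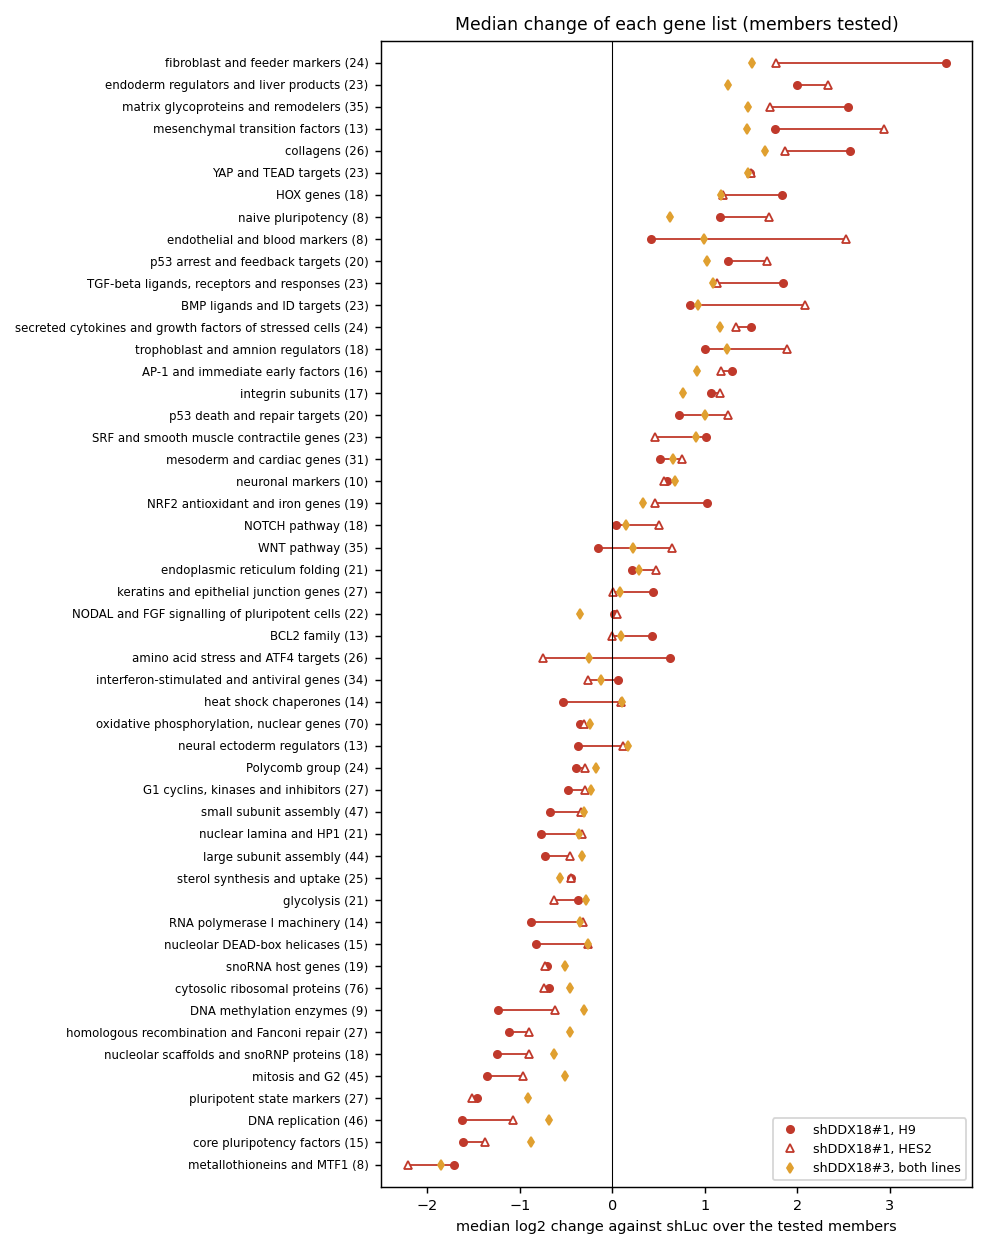
Median log2 change of each gene list, with shDDX18#1 in H9, shDDX18#1 in HES2 and shDDX18#3 in both lines as separate points. Lists of core pluripotency factors and state markers, cell division and ribosome production lie left of 0 and lists of matrix, TGF-beta, YAP and endoderm genes right of it in both lines.

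Most listed targets of p53 rose and none fell. p53 is the transcription factor that stops division or starts death after stress. Of 20 targets for arrest and feedback 13 rose (median 1.4), and of 20 targets for death and repair 14 rose (median 0.96). Among those that did not pass, CCNG1, TRIAP1, PPM1D, BAX, AEN and DDB2 had negative changes in H9 (-0.47 to -0.009) and positive ones in HES2 (0.44 to 0.85). PMAIP1 and TRIM22 had the reverse. MDM4 was lower in both lines, and SESN1, CCNG2, CASP10 and XPC were higher in both. CDKN1A (p21), the inhibitor of cyclin-dependent kinases, went from 102 to 1238 CPM in H9 and from 32.9 to 404 CPM in HES2 (log2 change 3.58, SE 0.22, limma adjusted p = 7.04e-05). CDKN1A was higher in H9 than in HES2 in both arms. MDM2, the ubiquitin ligase that p53 induces against itself, went from 117 to 409.6 CPM in H9 and from 68.9 to 421 CPM in HES2 (log2 change 2.19, SE 0.19, limma adjusted p = 0.000223). Here the lines ended at nearly the same level.

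GDF15, a secreted stress factor of the TGF-beta family, was among the 12 largest rises of the comparison: it went from 18.8 to 238 CPM in H9 and from 6.71 to 198 CPM in HES2 (log2 change 4.14, SE 0.26, limma adjusted p = 7.26e-05). The antiproliferative gene BTG2 (2.71), the RNA-binding protein gene ZMAT3 (2.15) and GADD45A (2.1) rose in both lines. FAS, a death receptor, went from 8.03 to 63.7 CPM in H9 and from 2.68 to 43.8 CPM in HES2 (3.22); it overlaps an antisense gene of ACTA2 and lies next to ACTA2, and the kit kept no strand. SPATA18, a mitochondrial quality gene, went from 4.71 to 43.7 CPM in H9 and from 3.13 to 26.7 CPM in HES2. The quinone oxidoreductase TP53I3 went from 53.4 to 223 CPM in H9 and from 27.7 to 113 CPM in HES2. In the BCL2 family 3 of 13 rose and 1 fell, and with 1 library left out the rises numbered between 1 and 4 (1 without either H9 knockdown library, HES2 shDDX18#3 or H9 shLuc). With all 6 libraries, 23.1% of the BCL2 family rose and 7.69% fell, against 14.4% and 13.4% of all tested genes. The protective BCL2L1 rose from 77.8 to 178 CPM in H9 and from 79.1 to 193 CPM in HES2 (1.23).

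Genes of the extracellular matrix and of mesenchyme held many of the largest rises of the comparison. Of 35 matrix glycoproteins and remodelers 28 rose and none fell (median 2.07), and of 26 collagens 20 rose and 1 fell (median 1.7; 2.57 in H9 and 1.87 in HES2). FN1, fibronectin, the substrate on which mesenchymal cells move, went from 2424 to 51833 CPM in H9 and from 1026 to 27157 CPM in HES2 (log2 change 4.57, SE 0.27, limma adjusted p = 6.76e-05). Its share of all reads went from 0.24% to 4.76% in H9 and from 0.107% to 2.85% in HES2. Both shDDX18#1 values were over 10 times either shLuc value.

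COL1A1, the main chain of fibrillar collagen I, went from 687 to 18386 CPM in H9 and from 59.5 to 1124 CPM in HES2 (log2 change 4.48, SE 0.22, limma adjusted p = 3.75e-05). The H9 libraries were far above the HES2 libraries in both arms, and the H9 shLuc value stayed below the HES2 shDDX18#1 value. COL6A3 went from 175 to 5916 CPM in H9 and from 20.6 to 419.9 CPM in HES2 and COL3A1 went from 196 to 3659 CPM in H9 and from 36.7 to 938 CPM in HES2. COL5A1 (3.62), the basement membrane chain COL4A1 (2.91), the crosslinking enzyme LOX (3.83), and the matrix adaptor TGFBI (4.12) rose in both lines. Of 17 integrin subunits, the receptors for matrix, 9 rose and 1 fell. ITGAV, a subunit of fibronectin and vitronectin receptors, went from 73.9 to 556 CPM in H9 and from 62.1 to 451 CPM in HES2 (2.87), and the collagen receptor subunit ITGA11 went from 12.5 to 306 CPM in H9 and from 1.12 to 25.7 CPM in HES2 (4.08). Transcription factors of the mesenchymal transition rose in 8 of 13, and none fell. ZEB1, a repressor of epithelial genes, went from 4.43 to 58 CPM in H9 and from 0.894 to 21.2 CPM in HES2, SNAI2 went from 6.37 to 71.1 CPM in H9 and from 2.46 to 32.8 CPM in HES2, and TWIST1 rose by 3.2 on the log2 scale.

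Markers of fibroblasts, the kind of cell in the feeder layer, were counted too, and most of that list is part of the genes above: 7 of its 24 markers are collagens, and 15 stand in the lists of matrix or mesenchymal genes. Of the 24 markers 16 rose and none fell (median 2.44; 3.6 in H9 and 1.77 in HES2). Their summed share of reads went from 0.324% to 4.24% in H9 and from 0.164% to 0.678% in HES2, with 1.51% and 0.513% in the shDDX18#3 libraries. Without the collagens 9 of 17 rose, and the share went from 0.0769% to 0.437% in H9 and from 0.0733% to 0.168% in HES2. Of the 9 markers in none of those lists 4 rose and none fell (PDGFRB, FBLN2, MFAP5 and CCDC80; median 1.72). POSTN, a marker of activated fibroblasts, stood at 31.8 CPM with shLuc and 1667 CPM with shDDX18#1 in H9, against 1.56 and 1.61 CPM in HES2, and did not pass (log2 change 2.85, limma adjusted p = 0.0648). POSTN had the largest change of these markers in H9 (5.67, against 0.02 in HES2), while COL1A1, COL3A1, LUM and PRRX1 rose in both lines. THY1, MFAP4, S100A4 and FBLN1, which did not pass, had opposite signs in the lines. THY1 changed by 0.36 in H9 and -1.68 in HES2, MFAP4 by 3.68 and -0.42, and S100A4 by 1.58 and -0.73. FBLN1 went the other way (-0.21 and 1.13), and FAP, PDGFRA and TWIST2, also not called, were higher in both lines. LUM, a collagen-binding proteoglycan, went from 10.8 to 74.7 CPM in H9 and from 4.69 to 55.3 CPM in HES2, and PDGFRB, a receptor of mesenchymal and mural cells, went from 19.1 to 237 CPM in H9 and from 20.1 to 66.9 CPM in HES2. No marker of the list was at 0 reads in both shLuc libraries; DPT and PI16 were not analysed here. The part of feeder RNA in these rises was not tested, and in bulk RNA more cells of a type and more RNA per cell cannot be told apart.

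**Figure D3:**
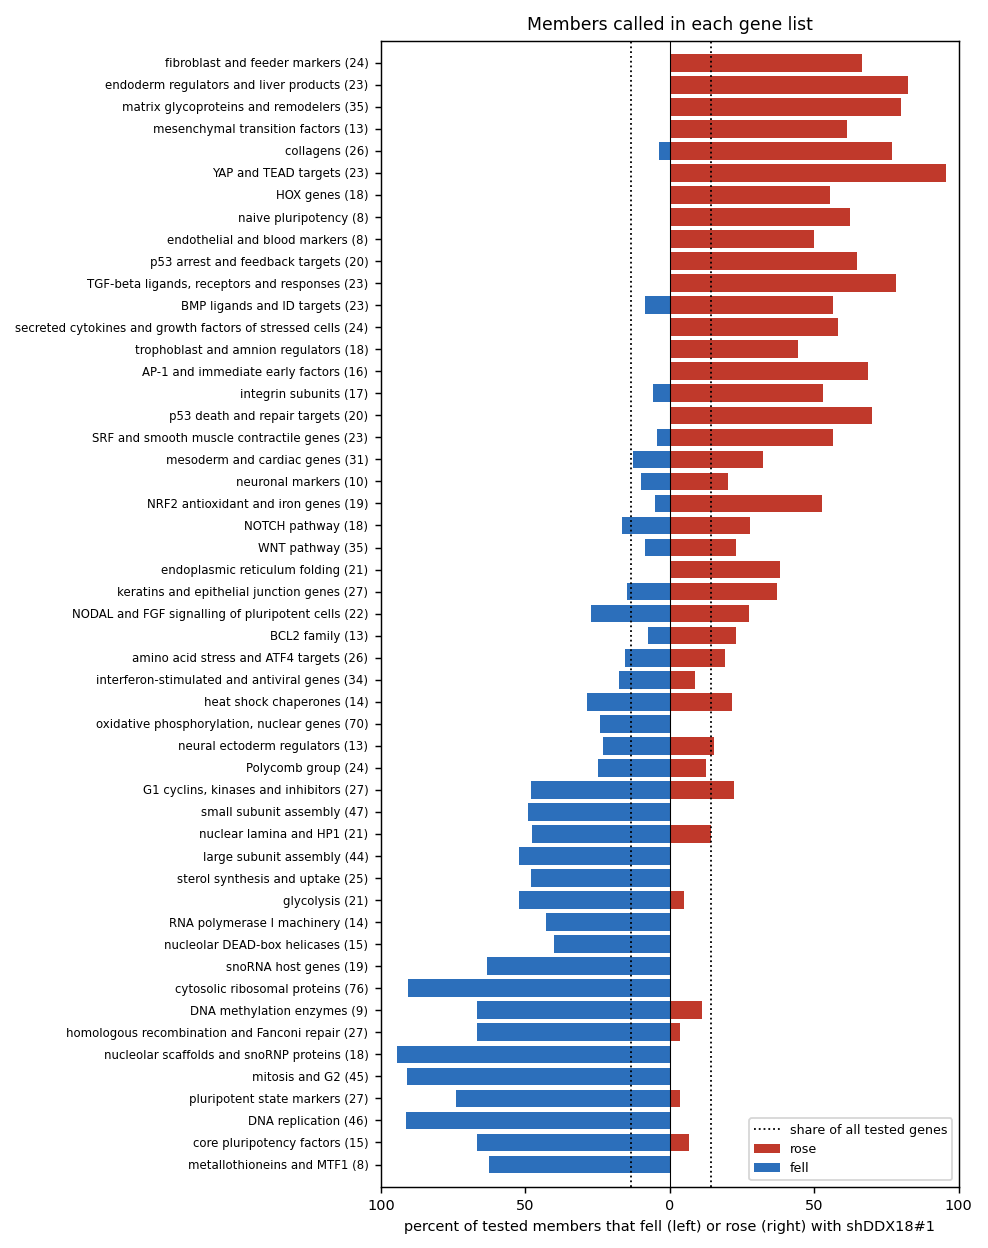
Share of the tested members of each list that rose and that fell with shDDX18#1, in percent; dotted lines mark the shares over all tested genes, 14.4% for rises and 13.4% for falls. Replication, mitosis and ribosomal protein genes stand far out on the side of falls, and YAP, matrix and endoderm genes on the side of rises.

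Genes read by mechanical and growth factor signals rose together with the matrix. YAP is a co-activator that works through TEAD factors on stiff surfaces, and 22 of 23 tested targets rose and none fell (median 1.57). Of 23 genes of TGF-beta signalling 18 rose (median 1.32). The lists overlap, and IGFBP3 and TGFB2 each stand in more than one. Of the 23 YAP targets 18 had a promoter in the RefSeq table, which is under 80%, so a share for the list is void; GGAATG, the core letters of a TEAD site, was in the promoters of ANKRD1, CCN2, FOXF2, PTPN14, TGFB2 and NUAK2, beside 11.9% of all promoters. The promoters of the best known pair of YAP targets, CCN2 and ANKRD1, are shown with those letters, on either strand, in capitals.
CCN2 (chr6:131951373-131951622, strand -): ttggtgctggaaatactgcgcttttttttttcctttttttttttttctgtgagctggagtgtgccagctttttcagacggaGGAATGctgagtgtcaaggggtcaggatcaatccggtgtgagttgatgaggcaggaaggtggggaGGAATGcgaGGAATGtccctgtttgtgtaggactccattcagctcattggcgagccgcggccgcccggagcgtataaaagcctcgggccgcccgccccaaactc
ANKRD1 (chr10:90921088-90921337, strand -): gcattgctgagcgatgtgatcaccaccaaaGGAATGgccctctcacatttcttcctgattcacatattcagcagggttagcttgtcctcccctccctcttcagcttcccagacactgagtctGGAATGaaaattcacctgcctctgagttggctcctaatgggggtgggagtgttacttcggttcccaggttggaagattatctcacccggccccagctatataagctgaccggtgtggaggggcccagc

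CCN2 (CTGF), a matricellular protein, carries 3 such matches and went from 111 to 405 CPM in H9 and from 85.8 to 314 CPM in HES2 (log2 change 1.86, SE 0.13, limma adjusted p = 0.000109). ANKRD1, a nuclear and sarcomeric protein, carries 2 and went from 17.4 to 221 CPM in H9 and from 6.48 to 424 CPM in HES2 (log2 change 4.71, SE 0.49, limma adjusted p = 0.000448), the second largest rise of the comparison. All 4 libraries of both genes kept their arms apart, although ANKRD1 was higher in H9 with shLuc and in HES2 with shDDX18#1. CCN1 (1.49) and the membrane repair protein MYOF (3.1) rose as well. The ligand TGFB2 went from 1.94 to 32.7 CPM in H9 and from 0.447 to 21.6 CPM in HES2, from 7 and 2 reads in the shLuc libraries. IL11, a cytokine of fibrosis, went from 2.21 to 38.4 CPM in H9 and from 2.46 to 49.6 CPM in HES2 (3.74).

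Targets of SRF, the factor of the actin cytoskeleton, rose in 13 of 23 and 1, SRF itself, fell. ACTA2, smooth muscle actin, went from 20.2 to 209 CPM in H9 and from 2.68 to 80.8 CPM in HES2 (log2 change 3.89, SE 0.27, limma adjusted p = 0.000105). FLNC, a filamin of muscle, went from 238 to 928 CPM in H9 and from 55 to 568 CPM in HES2, and TAGLN2 went from 151 to 466 CPM in H9 and from 98.1 to 252 CPM in HES2. The CArG box, the letters SRF is known to bind, was in 6 of 19 promoters of the list (31.6%, against 1.14% of all promoters): ACTG2, CNN2, TPM4, MYLK, SRF and FLNA, none of which rose. AP-1 and immediate early factors rose in 11 of 16 (median 1.28), among them JUN (1.87), FOSL2 (2.55) and KLF6 (2.37). Of 24 secreted factors of stressed cells 14 rose (median 1.3). IGFBP3, which binds insulin-like growth factors, was the largest rise of all: it went from 34.3 to 898 CPM in H9 and from 5.14 to 181 CPM in HES2 (log2 change 4.78, SE 0.14, limma adjusted p = 5.56e-06). Its shDDX18#1 values were at least 5 times the higher shLuc value. IGFBP7 (2.98) and IGFBP5 (4.21) rose too.

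Regulators of endoderm and products of the liver, which arises from it, rose in 19 of 23 genes and none fell (median 2.08). GATA6, a factor that opens the endoderm programme, went from 54.3 to 221 CPM in H9 and from 28.6 to 209 CPM in HES2 (log2 change 2.42, SE 0.22, limma adjusted p = 0.000261), and its relative GATA4 went from 29.1 to 119 CPM in H9 and from 18.3 to 162 CPM in HES2. SOX17, a definitive and primitive endoderm factor, went from 52.6 to 117 CPM in H9 and from 39.6 to 289.9 CPM in HES2 (1.99). CXCR4, a chemokine receptor used to sort definitive endoderm, went from 24.9 to 242 CPM in H9 and from 14.8 to 169 CPM in HES2 (log2 change 3.33, SE 0.16, limma adjusted p = 3.75e-05). In all 4 the shDDX18#1 libraries of both lines were above both shLuc libraries. HNF4A, the factor of liver and visceral endoderm, went from 4.98 to 73.5 CPM in H9 and from 1.79 to 62.7 CPM in HES2. APOA1, an apolipoprotein of the liver, went from 8.86 to 134 CPM in H9 and from 4.02 to 124 CPM in HES2 (log2 change 4.21, SE 0.26, limma adjusted p = 7.04e-05).

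Genes of other lineages were counted in the same way. Of 31 mesoderm and cardiac genes 10 rose and 4 fell (32.3% and 12.9%, against 14.4% and 13.4% of all tested genes; median 0.73), and without H9 shDDX18#3 6 rose; 2 fell without that library, H9 shDDX18#1, HES2 shLuc or HES2 shDDX18#3. The early mesoderm factors TBXT, TBX6 and MESP2 and the sarcomere gene TNNI3 were among the falls. TNNI3 had the lowest value of the list (-2.11), with 9 and 39 reads with shLuc and 2 and 0 with shDDX18#1 (H9 and HES2). The sarcomere genes TTN and TNNC1 and the peptide NPPB were among the rises. TTN, titin, went from 77.2 to 505 CPM in H9 and from 113 to 746 CPM in HES2 (log2 change 2.7, SE 0.14, limma adjusted p = 4.06e-05). NPPB went from 13.6 to 238 CPM in H9 and from 0.447 to 34.1 CPM in HES2, from 49 and 2 reads with shLuc. In the list of trophoblast and amnion regulators 8 of 18 genes rose and none fell. IGFBP3, counted above with the secreted factors, is among these rises too. GATA3 went from 3.05 to 34.7 CPM in H9 and from 5.59 to 123 CPM in HES2 (3.69). EPAS1, the hypoxia factor HIF-2 alpha, which is also high in trophoblast, rose by 3.52. GATA2, TFAP2A, TFAP2C and CDX2, the other main factors of trophoblast, did not pass.

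In neural ectoderm 2 genes rose and 3 fell of 13 (15.4% and 23.1%, against 14.4% and 13.4% of all tested genes). More fell without HES2 shLuc and fewer without H9 shLuc. The eye and forebrain factor PAX6 rose from 1.11 to 14.3 CPM in H9 and from 1.12 to 16.1 CPM in HES2 and the forkhead gene FOXB1 fell from 35.7 to 0.408 CPM in H9 and from 12.1 to 1.93 CPM in HES2. HOX genes, which pattern the body axis, rose in 10 of 18 and none fell (median 1.52), and between 5 and 9 rose with 1 library left out, fewest without H9 shDDX18#1, H9 shDDX18#3 or HES2 shDDX18#3. None of them passed with shDDX18#3, and no gene of the list passed the test between the hairpins. Their levels were low: HOXB2 went from 1.94 to 20.4 CPM in H9 and from 0.671 to 20.6 CPM in HES2, and HOXC6 had 0 reads in both shLuc libraries and stood at 10.6 and 2.90 CPM with shDDX18#1.

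Epithelial genes did not fall as a group. Of 27 keratins and junction genes 10 rose and 4 fell (37% and 14.8%, against 14.4% and 13.4% of all tested genes). The number of falls depended on single libraries and was highest without H9 shLuc. KRT19, a keratin of simple epithelia, went from 106 to 299.7 CPM in H9 and from 120.5 to 569.5 CPM in HES2 (1.86), and the desmosome protein DSP went from 369.9 to 865 CPM in H9 and from 428 to 827 CPM in HES2 (1.08). CDH1 (E-cadherin) and the epithelial regulators ESRP1 and GRHL2 were among the falls. KRT18 rose as well (1.57), with the limit that it has many processed copies.

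Genes of 3 signalling pathways were counted. In the list of BMP ligands and ID targets, which also holds antagonists and a receptor, 13 of 23 genes rose and 2 fell. More fell without HES2 shLuc. The target ID1 did not pass, with changes of -1.27 in H9 and 1.41 in HES2. The antagonist GREM1 went from 38.8 to 764 CPM in H9 and from 4.02 to 63.4 CPM in HES2 (3.97), NOG went from 3.05 to 29.4 CPM in H9 and from 0.671 to 15.1 CPM in HES2 (3.09), and the receptor BMPR2 went from 52.3 to 199 CPM in H9 and from 37.8 to 103 CPM in HES2 (1.67). In the WNT pathway 8 rose and 3 fell of 35 (22.9% and 8.57%, against 14.4% and 13.4% of all tested genes); the rises numbered 14 without H9 shLuc, and the falls 1 without H9 shDDX18#1, 6 without HES2 shLuc and 5 without HES2 shDDX18#1. Of the secreted WNT inhibitors FRZB rose from 13.3 to 102 CPM in H9 and from 8.27 to 120.0 CPM in HES2 and SFRP2, abundant in stem cells, fell from 339.7 to 102 CPM in H9 and from 494 to 109 CPM in HES2. In the NOTCH pathway 5 of 18 rose and 3 fell (27.8% and 16.7%), with 2 and 1 without H9 shDDX18#1, and 1 fall without either shDDX18#3 library. NRARP, a feedback inhibitor of NOTCH, fell from 16.1 to 2.45 CPM in H9 and from 42.5 to 5.79 CPM in HES2 (-2.49).

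Metabolic genes gave 45 falls and 1 rise of 124 tested. The list of metallothioneins, which bind zinc and copper, also holds their transcription factor MTF1 (log2 change 0.04, not called); 5 of its 7 metallothioneins fell, MT1M and MT2A did not pass, and MT1G had the largest fall of the comparison, going from 32.7 to 5.31 CPM in H9 and from 71.5 to 1.61 CPM in HES2 (log2 change -3.61, SE 0.50, limma adjusted p = 0.00161). MT1X and MT1F fell by 2.1 and 1.9; members of this family are near copies of each other, so reads may be split among them. Sterol genes fell in 12 of 25 and none rose (7 falls without HES2 shDDX18#3). HMGCS1, an early enzyme of cholesterol synthesis, went from 449 to 227 CPM in H9 and from 456 to 187 CPM in HES2, and the master regulator SREBF1 fell by 1.30. Of 21 glycolytic genes 11 fell and 1 rose; without HES2 shLuc 3 rose. The aldolase ALDOC fell from 53.4 to 8.98 CPM in H9 and from 91 to 7.72 CPM in HES2 (-2.92), while the glucose transporter SLC2A3 rose from 1273 to 3157 CPM in H9 and from 2001 to 5842 CPM in HES2 (1.43). Nuclear genes of oxidative phosphorylation fell in 17 of 70, or 24.3%, against 13.4% of all tested genes (median -0.3). Fewer fell when any 1 library was left out, fewest without H9 shDDX18#1.

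Genes of stress programmes other than p53 were counted next. NRF2 targets rose in 10 of 19 and 1 fell, with 6 rises without H9 shDDX18#1 or either shDDX18#3 library. HMOX1, the enzyme that breaks down haem, went from 35.2 to 191 CPM in H9 and from 24.4 to 124 CPM in HES2 (log2 change 2.35, SE 0.18, limma adjusted p = 0.000142). Genes of folding in the endoplasmic reticulum rose in 8 of 21 (2 without H9 shDDX18#1), led by CREB3L1, a factor of secretory and collagen-making cells, at 2.7. Targets of ATF4, the factor of amino acid stress, had opposite medians in the lines, 0.62 in H9 and -0.75 in HES2, with 5 rises and 4 falls of 26 (19.2% and 15.4%, near the 14.4% and 13.4% over all genes). With 1 library left out the rises ran between 3 and 10 and the falls between 1 and 12: rises were fewest without H9 shDDX18#1 and falls most without H9 shLuc. Of 14 heat shock chaperones 3 rose and 4 fell, 21.4% and 28.6% (1 and 1 without H9 shDDX18#1, and 7 falls without HES2 shLuc). The mitochondrial chaperonin HSPD1 fell by 1.35. Interferon genes rose in 3 and fell in 6 of 34 (8.82% and 17.6%, also near the shares over all genes), with 3 falls without HES2 shDDX18#1 and 1 rise without either shDDX18#3 library. IFITM3, an antiviral protein that stem cells hold high, fell from 287 to 135 CPM in H9 and from 252 to 155 CPM in HES2.

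Chromatin regulators fell in part. Of 9 enzymes and factors of DNA methylation 6 fell and 1, TET2, rose; without H9 shDDX18#1 3 fell. Besides DNMT3B these included the demethylase TET1, which went from 151 to 45.7 CPM in H9 and from 120.3 to 47.9 CPM in HES2, and UHRF1, which brings maintenance methylation to replicated DNA and went from 73.1 to 13.5 CPM in H9 and from 80.5 to 27.7 CPM in HES2. In the Polycomb group 3 rose and 6 fell of 24 (12.5% and 25%, against 14.4% and 13.4% of all genes), with 3 falls without H9 shDDX18#1 or either shDDX18#3 library. PHC1 fell from 398 to 163 CPM in H9 and from 429 to 139.7 CPM in HES2 while its paralog PHC2 rose from 26.3 to 101.3 CPM in H9 and from 18.1 to 111 CPM in HES2; the third polyhomeotic gene, PHC3, did not pass (-0.19). In the list of nuclear lamina and HP1 genes 10 fell and 3 rose of 21 (47.6% and 14.3%, against 13.4% and 14.4% of all genes). The number of falls depended on single libraries and was lowest without H9 shDDX18#1. LMNA, lamin A/C, which is low in stem cells and high in stiff tissues, rose from 166 to 528 CPM in H9 and from 61.7 to 227 CPM in HES2 (1.76).

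The largest falls were of genes with low to moderate levels in stem cells. PLA2G3, a secreted phospholipase, went from 22.4 to 0.817 CPM in H9 and from 34.7 to 2.57 CPM in HES2 (log2 change -3.5, SE 0.32, limma adjusted p = 0.000262), and its shDDX18#1 values came from 8 reads or fewer. HPAT5, a long noncoding RNA of human pluripotent cells, went from 124 to 17.2 CPM in H9 and from 61.7 to 7.72 CPM in HES2 (log2 change -2.82, SE 0.19, limma adjusted p = 9.32e-05). The kinase gene LCK fell from 16.9 to 0.817 CPM in H9 and from 41.6 to 6.76 CPM in HES2 and the membrane protein gene CNMD fell from 34.3 to 4.08 CPM in H9 and from 42.7 to 4.83 CPM in HES2. MATK had 46 and 59 reads with shLuc, 0 in H9 and 3 in HES2 with shDDX18#1, so its fitted change depends on the offset. ACTN3, HES3 and BST2 also ended at 3 reads or fewer in each shDDX18#1 library. Among the largest rises not yet described, GASK1B went from 4.43 to 119.7 CPM in H9 and from 4.02 to 124 CPM in HES2 (4.56), and the ubiquitin ligase MARCH4 went from 1.94 to 44.9 CPM in H9 and from 0.671 to 39.3 CPM in HES2, from 7 and 3 reads with shLuc.

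Markers of other cells that such a culture could hold were counted as well. Of 8 endothelial and blood markers 4 rose and none fell (2 without HES2 shLuc, HES2 shDDX18#1 or either shDDX18#3 library), and their summed share of reads went from 0.0258% to 0.00783% in H9 and from 0.0180% to 0.0335% in HES2. CD34 went from 0.554 to 10.6 CPM in H9 and from 2.01 to 29.9 CPM in HES2. KDR, which stem cells also express, had the highest level of the list and did not pass. It went from 223 to 55.1 CPM in H9 and from 152 to 182 CPM in HES2. TEK, also not called, went from 34.6 to 8.98 CPM in H9 and from 10.7 to 16.4 CPM in HES2. Of 10 neuronal markers 2 rose and 1, DCX, fell (20% and 10%, near the 14.4% and 13.4% of all tested genes). Their summed share of reads went from 0.0192% to 0.0484% in H9 and from 0.00796% to 0.0134% in HES2. The neurofilament genes NEFL and NEFM were the rises: NEFL went from 46.5 to 185 CPM in H9 and from 17 to 48.6 CPM in HES2, and NEFM went from 28.8 to 241 CPM in H9 and from 11.8 to 25.1 CPM in HES2, a call lost without a trended prior (limma adjusted p = 0.0587) and, like that of NEFL, with no replicate block (0.248 and 0.211). The DCX call was lost without any 1 of the 6 libraries (log2 change -1.0 to -1.47, limma adjusted p between 0.0568 and 0.196). PECAM1, PTPRC, GATA1, SPI1, HBE1, HBG1, HBZ and CLDN5 were not analysed here.

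**Figure D4:**
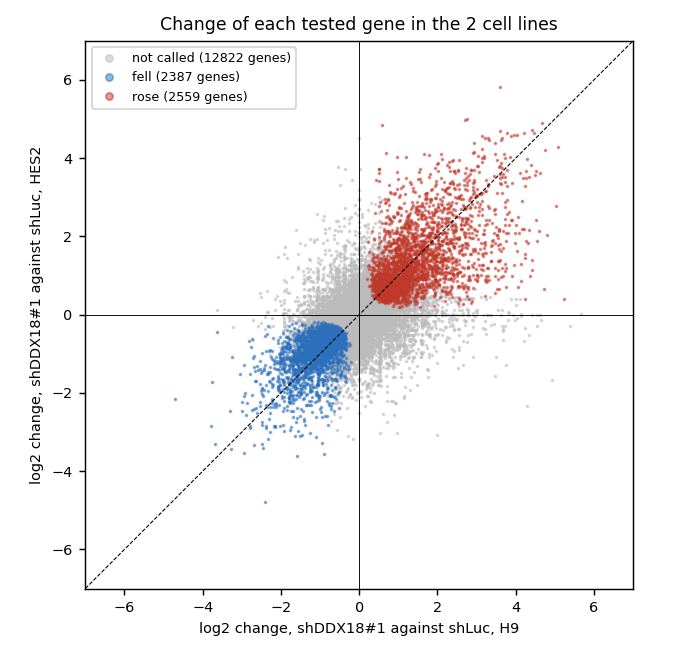
Log2 change with shDDX18#1 in H9 (horizontal) against that in HES2 (vertical), 1 point per tested gene, with called rises and falls coloured. All 4946 called genes lie in the quadrants where both lines agree in sign, which the calling selects for; 73.5% of all tested genes lie there.

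The lines were compared gene by gene. Across the 17768 genes the changes in H9 and in HES2 had a Pearson r of 0.641 and a Spearman rho of 0.625, and 73.5% had the same sign; among the 10866 genes with a mean of at least 10 CPM these were 0.756, 0.752 and 79.1%. Genes are not independent replicates, and each line has its own pair of libraries. Of the called genes, 2921 changed more in H9 and 2025 more in HES2; the rises had medians of 1.29 and 1.23 and the falls -1.02 and -0.83 in H9 and HES2. No gene passed the limma test of the interaction of line and knockdown over both hairpins (0 of 17768, 0%, smallest adjusted p 0.935). An unadjusted limma p under 0.05 was found for 788, a count below a share of 0.05 of the tested genes. In that fit the libraries of both hairpins in a line stood as replicates of the knockdown, so differences between hairpins entered its error. Its counts therefore cannot decide whether the lines responded alike. The effect of shDDX18#1 alone cannot be tested between lines with 1 library per arm.

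Genes called with shDDX18#1 had smaller median changes with shDDX18#3, but the test of the difference did not pass for any gene. The 2559 genes that rose with shDDX18#1 had a median of 1.35 with it and 0.887 with shDDX18#3, and the 2387 that fell had -0.94 and -0.55; these genes were chosen on the first value of each pair. No gene differed between the hairpins at an adjusted p under 0.05 with limma (0 higher, 0%, and 0 lower, 0%, of 17768; smallest adjusted p 0.0541), while 2536 had an unadjusted p under 0.05, edgeR called 21 higher and 10 lower, and DESeq2 76 and 37. The 5 genes with the smallest p, all at an adjusted p of 0.0541, were IGFBP3, STMN3, HMOX1, CTSV and SOX2. IGFBP3 stood at 341 CPM in H9 and 65.4 CPM in HES2 with shDDX18#3, below the shDDX18#1 value of the same line (difference 1.43, 95% interval 1.10 to 1.75). SOX2 kept 178 CPM in H9 and 151 CPM in HES2 with shDDX18#3, about midway between the other arms on the log scale (difference -1.08, 95% interval -1.37 to -0.78).

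HMOX1 was at 55.8 CPM in H9 and 51.5 CPM in HES2 with shDDX18#3, nearer to shLuc than to shDDX18#1, with changes of 0.85 and 2.35. The cysteine protease CTSV was at 271 CPM in H9 and 184 CPM in HES2 with shDDX18#3, and went from 88.9 to 634 CPM in H9 and from 55.4 to 373 CPM in HES2 with shDDX18#1. STMN3, a regulator of microtubules, was the one of the 5 with opposite signs: it was at 111 CPM in H9 and 72.7 CPM in HES2 with shDDX18#3 (log2 change 0.98) and went from 49.8 to 31 CPM in H9 and from 40.5 to 26.4 CPM in HES2 with shDDX18#1 (-0.63). The fall of STMN3 with shDDX18#1 was lost in 8 of the alternative fits (limma adjusted p up to 0.154 without H9 shDDX18#1). ACTA2 had the larger value with shDDX18#3 (4.27, against 3.89 with shDDX18#1) although DDX18 was lower with shDDX18#1.

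**Figure D5:**
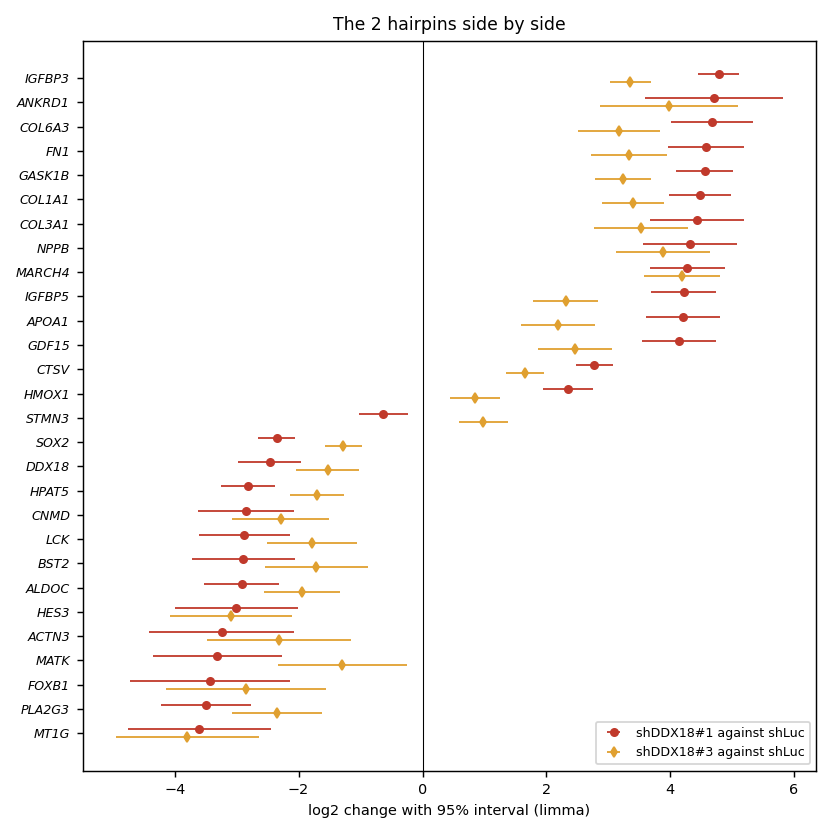
Log2 change against shLuc with 95% intervals for shDDX18#1 and shDDX18#3, for DDX18, the 12 largest rises, 11 of the 12 largest falls and the 5 genes with the smallest p between the hairpins (28 genes in all). The genes of the first 3 groups were chosen on the shDDX18#1 values; the shDDX18#3 point lies nearer to 0 for all of them except MT1G and HES3, and STMN3 lies on opposite sides of 0.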

How the data were processed

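The authors deposited 1 table of TMM-scaled CPM (a normalized signal) for 17929 genes. Per the submitters' processing notes, Bowtie2 2.3.4.3, SAMtools 1.9, HTSeq 0.11.2, edgeR 3.26.8 and build hg19 were used; their roles and whether the counting used strand are not given in the sources used here. All values of the deposited signal (100%, tolerance 0.001) were whole multiples of 1 read, so whole reads were recovered. The test took genes that reached 1 CPM in 2 or more libraries and left out 161, and log2(CPM + 1) was fitted with limma 3.58.1 in R 4.3.3 over all 6 libraries, with arm and cell line as terms and a trended prior. The replicate numbers 1 and 2 stand for H9 and HES2, so the block pairs libraries of 1 line; deviations of the arms correlated at 0.363 to 0.654. Alternatives included edgeR 4.0.16 and DESeq2 1.42.0 on the reads; the scripts were tested on simulated data. The members and lists were chosen with earlier results of these data known. Named genes are DDX18, the 12 largest rises and falls, up to 3 called genes with the smallest p per list, 5 genes between hairpins, and added list members; some genes that met these rules are not reported here. The table itself named 15532 genes, and 600 more were named by their Ensembl IDs from a reference list.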

Additional observations from a re-analysis of the deposited data

Results flagged for a closer look

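Of 1196 list genes tested, 4 moved by at least 2-fold in opposite directions in the 2 lines with shDDX18#1, with the shDDX18#3 library of each line on the same side. The difference between lines was not tested for shDDX18#1 alone. Over both hairpins no interaction of line and knockdown passed with limma (smallest adjusted p 0.935), in a fit whose error includes differences between hairpins. ID1, a target of BMP signalling that holds back differentiation, went from 88.0 to 35.9 CPM in H9 (log2 change -1.27) and from 72.0 to 193 CPM in HES2 (1.41). SP5, a feedback target of WNT signalling, went from 156 to 42.9 CPM in H9 (-1.84) and from 68.9 to 191 CPM in HES2 (1.46). ALDH1L2, a mitochondrial folate enzyme induced by ATF4, went from 4.43 to 58.8 CPM in H9 (3.46) and from 10.5 to 2.90 CPM in HES2 (-1.56). ACTG2, a smooth muscle actin, went from 36.3 to 96.0 CPM in H9 (1.38) and from 1.79 to 0.322 CPM, which is 1 read, in HES2 (-1.08). These genes were picked for opposite values, so their values are a description.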

How the results depend on the processing

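Counts of calls moved with the model more than with the scaling. The rises with shDDX18#1, 2559 as reported, numbered 1616 without a trended prior, 1123 with no replicate block, 1605 in a fit of the 4 libraries alone, and 1403 to 2542 when each library was left out in turn (1403 without H9 shDDX18#1, 1650 without H9 shDDX18#3, 1598 without HES2 shDDX18#3). The falls, 2387 as reported, numbered 1194, 1003 and 1281 in the same fits, 1146 with DESeq2, and 1025 to 2115 when each library was left out (1025 without H9 shDDX18#1, 1297 and 1252 without the H9 and HES2 shDDX18#3 libraries). Between the hairpins, genes higher and lower with shDDX18#1 numbered 9 and 9 after quantile normalization, 23 and 20 with a robust prior, 21 and 10 with edgeR and 76 and 37 with DESeq2. They ranged from 0 to 422 and from 0 to 399 when each library was left out (416 and 399 with H9 shLuc left out, 422 and 395 with HES2 shLuc left out), while the fit of the 4 libraries alone gives no such contrast. The cause of these shifts was not tested, except that fewer libraries enter the leave-one-out and 4-library fits. When a library was left out, the lone library of its arm was assumed to vary like the other groups. DDX18 fell in every alternative (-2.86 to -2.07). Of 189 named genes called against shLuc, 157 kept the call in every alternative that tested them and none reversed. The fit with no replicate block lost 27, among them COL1A1, COL6A3, NPPB, GREM1, ITGA11, LCK, LMNA and SLC2A3, while the fits without 1 library lost 3 to 9. Of genes not called, ACTG2 (0.15) changed sign with a pseudocount of 0.25 (-0.22) and DESeq2 (-0.068), and ID1 (0.07) with DESeq2 (-0.017). Leaving out each library moved ACTG2 over -0.96 to 1.26, SP5 over -1.48 to 1.10, ID1 over -1.11 to 1.25 and ALDH1L2 over -1.39 to 3.29. Quantile normalization moved the median of all genes from -0.03 to -0.09. Depth limits genes near 1 CPM, since 3 reads were worth 0.671 CPM in HES2 shLuc and 1.23 CPM in H9 shDDX18#1.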

Other observations

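Of the 2559 rises, 186 had at most 3 reads in each shLuc library, so that their size is set by the offset. PODN, a small leucine-rich proteoglycan of mesenchyme, had 3 and 2 reads with shLuc and 28 and 142 with shDDX18#1 (H9 and HES2). MIR100HG, the host transcript of a microRNA cluster, had 1 and 2 reads with shLuc and 61 and 17 with shDDX18#1. DNM3OS, the host transcript of a mesenchymal microRNA cluster, had 1 and 0 reads with shLuc and 51 and 10 with shDDX18#1. DMRTA2, a factor of the embryonic forebrain, had 1 read in each shLuc library and 11 and 57 with shDDX18#1. For all 4 genes both shDDX18#1 libraries were above both shLuc libraries, PODN and DMRTA2 with more reads in HES2 and the other two with more in H9. Of the 2387 falls, 100 had at most 3 reads in each shDDX18#1 library, ACTN3 among them with 47 and 81 reads with shLuc and 2 in each shDDX18#1 library. These genes were chosen after their values were seen.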
